A study of Mus musculus with 2 samples.

Results

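The immediate-early genes Fos, Fosb, Jun, Junb, Egr1, Arc, Npas4, Nr4a1, Dusp1 and Ier2 were followed across the cell types of the mouse cerebral cortex in 2 single-cell RNA sequencing (scRNA-seq) libraries. They were found by symbol, are 10 of the 55450 genes in the tables, and were all detected in both libraries. The control library came from control C57BL/6 mice and the white matter injury (WMI) library from C57BL/6 mice whose right common carotid artery was ligated at postnatal day 7, with hypoxia for 1 h. Per the labels, cortex of the ligated side, or of the same side in control mice, was taken at postnatal day 14, at 2 weeks of age. The paper's methods differ from the labels in giving an earlier surgery and sampling, a longer hypoxia, and dissociated cells where the labels name nuclei, and its text is not uniform on which side of which mice served as the control. They describe 4 replicates per group, whereas 1 library per group was analysed here. All comparisons between libraries are therefore without replicates and without a test, and the 95% intervals cover counting error only.

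Immediate-early genes are transcribed within minutes of a stimulus by factors already present in the cell, such as CREB and SRF, without new protein synthesis. In cortical neurons they follow calcium entry and synaptic activity, and Arc, Npas4, Fos, Egr1 and Nr4a1 are widely used as records of recent activity. Fos, Jun, Junb, Dusp1 and Ier2 also respond to growth factors, injury and the dissociation of tissue, in glia and myeloid cells as well. Genes of the heat shock response and of ex vivo myeloid activation are therefore given beside the results.

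After filters and removal of predicted doublets, 8755 control and 7571 WMI cells remained, with medians of 4465 and 5087 unique molecular identifiers (UMIs, counts of single captured transcripts) per cell. The libraries shared 36 barcodes. Median mitochondrial shares were 0.0602% and 0.448%. Xist was found in 0.0571% and 63.1% of cells, so the libraries also differed in the sex of the mice they held. Of 32 clusters, 31 were named from markers. Cluster 4, with 63 control and 1115 WMI cells, was left unnamed because mitochondrial genes were among its leading genes. Excitatory neuron-like clusters 0 and 3 came to 92.1% and 98.6% from the control library and were shallow, with medians of 2899 and 1760 UMIs.

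Promoters are printed for Nr4a1, the member with the most UMIs, for Npas4, the member whose level followed it most closely, and for Fos and Junb, which stood apart in astrocyte-like cells. RefSeq (GRCm38.p6) gave the 250 bases before the start for 7 of the 10 genes, all but Egr1, Arc and Ier2. Each window ends at the RefSeq start, which for Nr4a1 and Npas4 lies inside the GENCODE gene span given further on. Capitals mark the CREB half-site TGACG on either strand, read as CGTCA on the opposite one. The windows lie at chr19:4989972-4990221 on the minus strand (Npas4), chr15:101266596-101266845 on the plus strand (Nr4a1), chr12:85473640-85473889 on the plus strand (Fos) and chr8:84978749-84978998 on the minus strand (Junb).
Npas4: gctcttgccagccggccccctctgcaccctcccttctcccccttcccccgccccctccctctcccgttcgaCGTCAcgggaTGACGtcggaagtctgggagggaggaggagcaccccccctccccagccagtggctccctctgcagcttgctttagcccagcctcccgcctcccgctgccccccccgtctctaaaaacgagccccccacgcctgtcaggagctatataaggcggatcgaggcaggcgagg
Nr4a1: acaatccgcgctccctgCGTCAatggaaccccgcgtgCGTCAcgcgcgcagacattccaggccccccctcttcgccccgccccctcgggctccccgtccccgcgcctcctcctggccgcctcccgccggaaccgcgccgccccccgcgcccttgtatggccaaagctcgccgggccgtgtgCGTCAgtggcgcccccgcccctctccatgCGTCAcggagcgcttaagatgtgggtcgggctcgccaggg
Fos: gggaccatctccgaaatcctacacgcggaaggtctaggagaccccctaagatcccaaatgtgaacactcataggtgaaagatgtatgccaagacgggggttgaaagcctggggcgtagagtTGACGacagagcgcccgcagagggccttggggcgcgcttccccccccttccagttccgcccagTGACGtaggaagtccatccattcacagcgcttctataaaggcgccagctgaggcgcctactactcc
Junb: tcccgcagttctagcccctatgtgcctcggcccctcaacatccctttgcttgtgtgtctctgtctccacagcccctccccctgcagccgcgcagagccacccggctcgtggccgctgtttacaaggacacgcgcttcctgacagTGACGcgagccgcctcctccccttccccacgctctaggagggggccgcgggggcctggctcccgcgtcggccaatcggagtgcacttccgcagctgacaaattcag
The Nr4a1 window held 4 half-sites, those of Npas4 and Fos 2 each and that of Junb 1. The half-site was found in 6 of the 7 windows, all but that of Jun, and in 17.8% of all 32851 promoter windows of this length. The full palindrome TGACGTCA, which holds the half-site on both strands, was found in Dusp1 and in 1.55% of all windows. The EGR site GCGNGGGCG was found in Fosb and Nr4a1 and in 4.70% of all windows. The AP-1 site TGANTCA and the CArG box of SRF were found in none of the 7, against 6.75% and 1.47% of all windows, which says only that these letters are not in these windows.

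The genes were scarce. Together they gave 4715 UMIs in control and 4718 in WMI cells, a summed level of 81.4 CPM (79.1 to 83.8) and 87.0 CPM (84.5 to 89.5), where CPM is UMIs of the gene per 1000000 UMIs of all genes. Nr4a1, an orphan nuclear receptor, contributed 45.0% and 41.5% of them, with 2123 and 1957 UMIs. Egr1, a zinc finger transcription factor, followed with 983 and 898 UMIs. Most UMIs over all cells thus came from these 2 genes.

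Npas4, a transcription factor induced by calcium in neurons, gave 426 and 393 UMIs, and Arc, a synaptic protein, 198 and 214 UMIs. Fos, a subunit of the AP-1 factor, gave only 76 and 134 UMIs over all cells, and its relative Fosb 27 and 24 UMIs. Their AP-1 partners were more abundant in UMIs, Jun with 275 and 341 UMIs and Junb with 304 and 400 UMIs. Dusp1, a phosphatase that ends MAP kinase signalling, gave 201 and 262 UMIs and Ier2 102 and 95 UMIs. The genes lie in GRCm38, with the strand in brackets, as Fos at chr12:85473890-85477273 (plus), Fosb at chr7:19302696-19310051 (minus), Jun at chr4:95049034-95052222 (minus), Junb at chr8:84974484-84978718 (minus), Egr1 at chr18:34859823-34864984 (plus), Arc at chr15:74669083-74672570 (minus), Npas4 at chr19:4984355-4990316 (minus), Nr4a1 at chr15:101254269-101274795 (plus), Dusp1 at chr17:26505590-26562128 (minus) and Ier2 at chr8:84661331-84662852 (minus). Jun overlaps Junos and Junb overlaps Prdx2 on the other strand. Dusp1 overlaps 4 annotated genes, AC122252.4 and AC122252.1 on its own strand and Gm8225 and Ergic1 on the other. How reads in shared stretches were assigned was not tested.

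Excitatory neurons had a higher summed level than inhibitory neurons. It was 89.4 CPM (86.7 to 92.2) in control and 94.7 CPM (91.4 to 98.0) in WMI excitatory neuron-like cells, against 45.8 CPM (40.0 to 52.3) and 45.0 CPM (38.4 to 52.4) in inhibitory neuron-like cells. The intervals of these classes did not overlap in either library. Oligodendrocyte (OL)-lineage-like cells were near the inhibitory neurons, at 49.9 and 54.2 CPM. Astrocyte-like cells had 60.4 and 88.8 CPM and microglia-like cells 60.7 and 85.0 CPM, and the intervals of these 2 classes overlapped in each library. In the WMI library both also overlapped the interval of excitatory neuron-like cells.

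The neuron types were ordered in the same way. Sst interneuron-like cells had 40.8 and 38.0 CPM, Lhx6 interneuron-like cells 42.5 and 45.7 CPM and Adarb2 interneuron-like cells 56.4 and 48.2 CPM, control first. All excitatory types with at least 50 cells lay above these levels in the same library, except cluster 24 with 39.7 CPM (25.2 to 59.6) in the control, from 23 UMIs. In the control library layer 4-like neurons had 91.2 CPM, layer 5-like 82.4, Cpne7 neuron-like 79.6, near-projecting-like 77.3, layer 6 corticothalamic-like 77.2 and upper-layer-like 72.3 CPM, and neighbours in this order had overlapping intervals. In the WMI library layer 4-like neurons led with 155 CPM (143 to 168), above the intervals of layer 6 corticothalamic-like (99.4 CPM), upper-layer-like (95.6), near-projecting-like (93), layer 5-like (90.5) and Cpne7 neuron-like cells (69.5). Cluster 16 had 114 CPM (100.1 to 129), and the interval of cluster 0, at 123 CPM (97.8 to 152) from 83 UMIs, overlapped that of layer 4-like neurons.

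**Figure D1:**
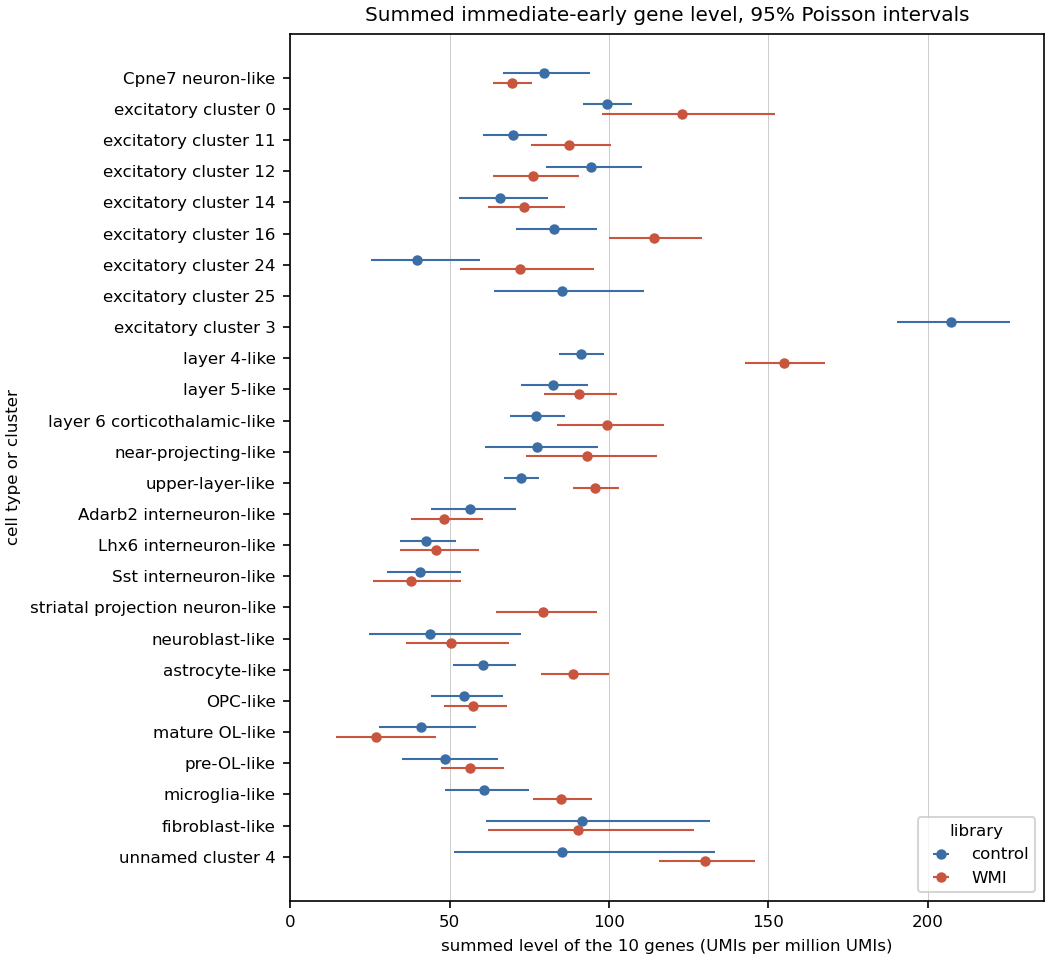
Summed level of the 10 genes (CPM, horizontal axis) in each type or cluster with at least 50 cells, for the control and WMI libraries, with exact 95% Poisson intervals. Control cells of excitatory cluster 3 stand at 207 CPM and WMI layer 4-like neurons at 155 CPM, and the 3 interneuron types at 56.4 CPM or below.

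Single genes divided the classes differently. Nr4a1 followed the excitatory neurons, with 42.5 and 46.7 CPM there, 19.6 and 19.2 CPM in inhibitory neuron-like, 15 and 11.9 CPM in astrocyte-like, 12.7 and 16.6 CPM in OL-lineage-like and 16 and 16.5 CPM in microglia-like cells. Jun was higher in glia and myeloid cells, with 13.4 and 17.8 CPM in astrocyte-like and 6.28 and 13 CPM in microglia-like against 4.04 and 4.22 CPM in excitatory neuron-like cells. In control fibroblast-like cells Jun stood at 37.9 CPM, from 12 UMIs. Fosb gave no UMI in astrocyte-like or OL-lineage-like cells of either library, which allows up to 1.22 CPM in control astrocyte-like cells (3 counts).

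Over the 49 sums of cluster and library, Npas4 and Nr4a1 had the highest Pearson r among the members, 0.69. Fos followed Egr1 at 0.61 and Junb at 0.57, and Jun with Nr4a1 was the lowest, at -0.45. Of the genes with 1000 or more UMIs in all, those whose level was most like the summed level were Mal2, Fam131a, Slc17a7, Abi2 and Mmd, at 0.73 to 0.74. The sums share 2 libraries and low counts, and these values are descriptions.

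Slc17a7, the vesicular glutamate transporter, should be absent from glia, and its UMIs there are read as RNA of neurons. Whether this RNA was free or came with doublets that were not removed was not tested. Relative to excitatory neuron-like cells it reached 0.59 and 0.49 of the level in astrocyte-like, 0.52 and 0.54 in OL-lineage-like and 0.85 and 0.75 in microglia-like cells, control and WMI. Another neuronal gene, Snap25, which encodes a synaptic vesicle fusion protein, reached 0.48 and 0.39, 0.50 and 0.49 and 0.76 and 0.54, and Rbfox3, which encodes the neuronal splicing factor NeuN, 0.15 and 0.16, 0.15 and 0.17 and 0.22 and 0.22. The ratio thus differed between neuronal genes. Nr4a1 reached 0.35 and 0.26, 0.30 and 0.35 and 0.38 and 0.35, below Slc17a7 and Snap25 and above Rbfox3 in all 3 classes and both libraries. Its interval in control astrocyte-like cells (0.248 to 0.488) held the Snap25 ratio. Npas4 was below Slc17a7 throughout, as was Arc except in control OL-lineage-like cells (0.84). Npas4 was above Snap25 in WMI cells of all 3 classes, at 0.46, 0.51 and 0.544, beside 0.39, 0.49 and 0.542. In control cells Npas4 was below Snap25. Arc was above Snap25 in WMI astrocyte-like (0.48), control OL-lineage-like (0.84) and WMI microglia-like cells (0.65), and below it in the rest. The intervals of all these Npas4 and Arc ratios held both the Slc17a7 and the Snap25 ratio, so these orders lay within counting error. What part of these UMIs is free RNA was not tested. Egr1 was above the Slc17a7 ratio throughout, at 0.84 and 0.80, 0.88 and 0.79 and 0.90 and 1.02. Its interval held the Slc17a7 ratio only in control microglia-like cells (0.57 to 1.36). Fos went both ways, from 0.24 in WMI microglia-like to 4.93 in WMI astrocyte-like cells. So did Dusp1, from 0.20 in control microglia-like to 2.28 in control astrocyte-like cells. Jun was above the Slc17a7 ratio throughout, at 1.32 to 4.21. In control microglia-like cells its interval (0.70 to 3.02) held the Slc17a7 ratio. Junb was above it in WMI astrocyte-like cells, at 3.92, and in microglia-like cells of both libraries, at 1.64 and 3.09. It was also above it in control OL-lineage-like cells, at 0.96. It was below it in control astrocyte-like cells, at 0.37, and in WMI OL-lineage-like cells, at 0.52. The intervals of these 2 ratios (0.12 to 0.87 and 0.29 to 0.88) held the Slc17a7 ratio.

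**Figure D2:**
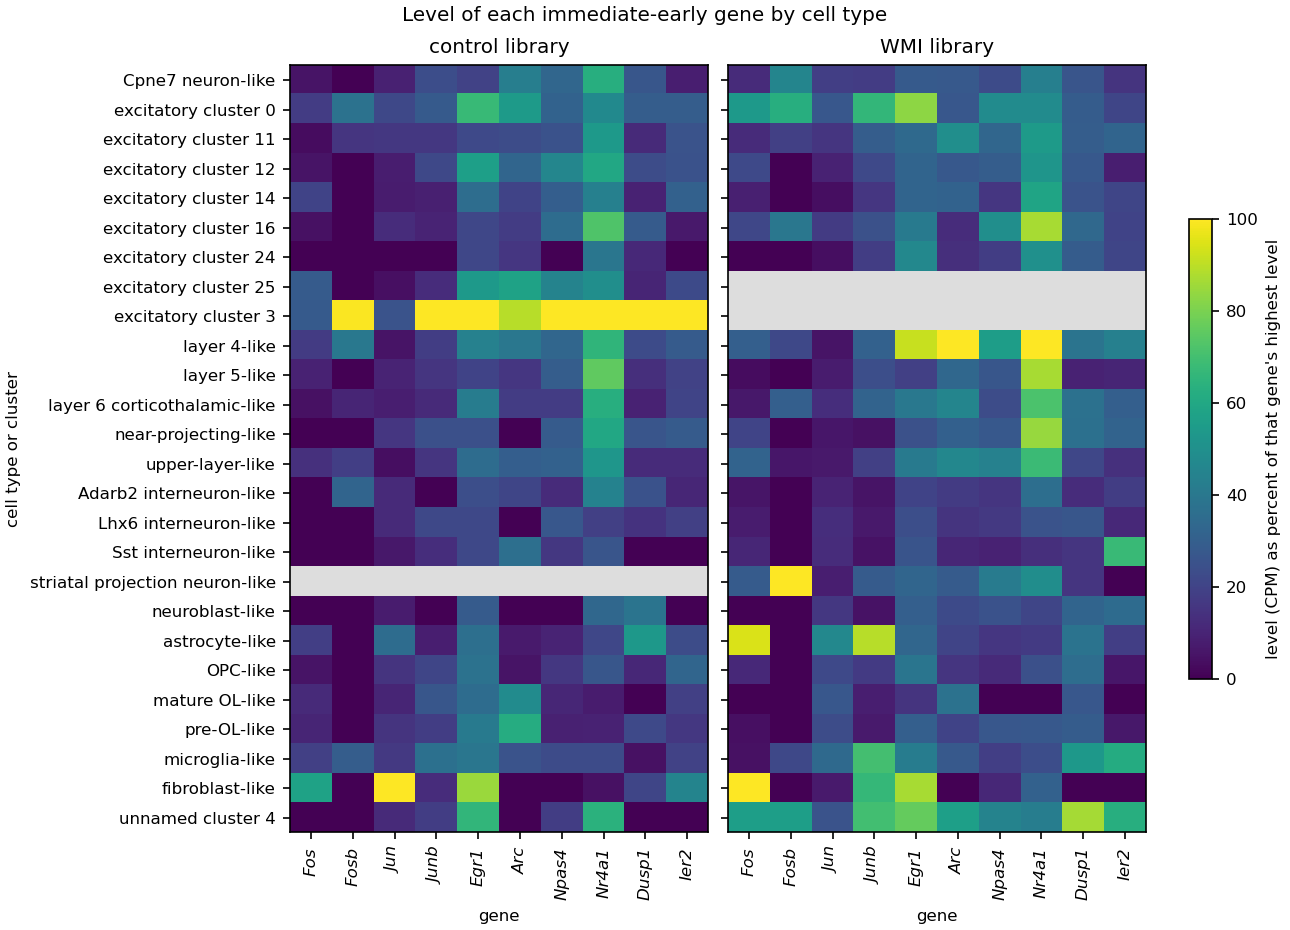
Level of each gene in each type or cluster with at least 50 cells, as percent of that gene's highest level, in the control and WMI libraries. Grey marks a type with under 50 cells. Nr4a1 is high over the excitatory types, and Junb stands at 2.03 CPM in control and 22.0 CPM in WMI astrocyte-like cells.

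Layer 4-like neurons differed between the libraries. Their summed level was 91.2 CPM (84.4 to 98.3) in 644 control and 155 CPM (143 to 168) in 359 WMI cells, a log2 ratio of 0.76 (0.60 to 0.92). Of the 10 genes, 5 had at least 50 UMIs over both libraries, the minimum for a gene to be counted, and 2 of these were higher in WMI by a ratio of at least 2, where 1.5% of all such genes were higher and 1.98% lower. Egr1 gave 134 and 148 UMIs, or 18.0 and 37.6 CPM, a log2 ratio of 1.06 (0.71 to 1.41). Arc gave 32 and 43 UMIs, or 4.31 and 10.9 CPM, a log2 ratio of 1.34 (0.65 to 2.05). The intervals of both genes lay above 0.

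The other 3 counted genes were also higher in WMI layer 4-like neurons, below a ratio of 2. Nr4a1 stood at 45.9 and 70.3 CPM (log2 ratio 0.62, interval 0.38 to 0.85), Npas4 at 8.08 and 13.7 CPM (log2 ratio 0.76, interval 0.21 to 1.32) and Junb at 4.44 and 7.62 CPM (log2 ratio 0.78, interval 0.014 to 1.54). The median log2 ratio of the 5 was 0.78, beside 0.0081 for all genes counted. Fos gave 14 and 13 UMIs (1.89 and 3.30 CPM) and Jun 15 and 8 UMIs (2.02 and 2.03 CPM). Dusp1 gave 26 and 23 UMIs (3.50 and 5.84 CPM) and Ier2 15 and 12 UMIs (2.02 and 3.05 CPM). Fosb gave 7 and 2 UMIs (0.943 and 0.508 CPM). These genes had too few UMIs to be counted, and each interval included no difference. After thinning of each cell to 1000 UMIs, a UMI of any member was found in 57 of 644 control cells, 8.85% (6.77 to 11.3), and in 59 of 359 WMI cells, 16.4% (12.8 to 20.7). Without thinning the shares were 59.9% and 69.6%. The log2 ratio of the sum was 0.67 in cells with 5000 to 10000 UMIs and 0.79 in male cells, those with a Y-linked UMI and no Xist.

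Related genes in layer 4-like neurons were counted too. The 16 other immediate-early transcription factors summed to 82.4 and 113 CPM, and 1 of 7, Egr3, was higher by a ratio of at least 2. The 11 late neuronal activity genes, which follow the immediate-early wave, summed to 454 and 630.4 CPM, with Vgf and Scg2, which encode secreted precursor proteins, past it among 10. The 11 heat shock genes summed to 160 and 166 CPM, with 0 of 6 past it. The 9 genes of ex vivo myeloid activation summed to 9.43 and 22.1 CPM, with 1 of 1, Nfkbiz, a regulator of NF-kB, past it. Median mitochondrial shares were 0.0434% and 0.345%. Of 8 microglial markers 7 were higher in WMI layer 4-like neurons, 78.0 and 248 CPM in sum, with none at 0. The part of these differences in the result was not tested.

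The summed level was higher in WMI in 10 of the 12 excitatory types with at least 50 cells in each library, with an interval above 0 in 6 and below 0 in 0. Upper-layer-like neurons had 72.3 and 95.6 CPM (log2 ratio 0.40, interval 0.25 to 0.56), with none of 5 genes past a ratio of 2, where 2.04% of all genes were higher and 1.39% lower. Cluster 24 had the highest ratio of the 12 types, 0.86 (0.12 to 1.64), from 23 and 49 UMIs. Cluster 16 stood at 0.46 (0.17 to 0.75) and cluster 11 at 0.32 (0.029 to 0.62). Layer 6 corticothalamic-like neurons stood at 0.36 (0.067 to 0.66) and layer 5-like neurons at 0.13 (-0.13 to 0.40). Cpne7 neuron-like cells and cluster 12 were the 2 types with a lower WMI level, at -0.20 (-0.47 to 0.086) and -0.31 (-0.66 to 0.038), intervals that include 0. Single genes did not all follow the sum. Nr4a1 was lower in WMI Cpne7 neuron-like cells (log2 ratio -0.54, interval -0.93 to -0.15). Egr1 was lower in WMI cells of cluster 12 (log2 ratio -0.81, interval -1.63 to -0.019). For each of these 2 genes the interval lay above 0 in 2 of the 12 types and below 0 in 1. Whether the ratio of layer 4-like neurons differs from those of other types was not tested.

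Over all 6589 control and 2978 WMI excitatory neuron-like cells the log2 ratio of the sum was 0.082 (0.014 to 0.15). Without the clusters mostly of 1 library it was 0.25 (0.18 to 0.33), and as a mean of single-cell levels, which weights shallow cells equally, it was -0.12. The direction in the pooled class thus depends on the weighting. Of the 9 genes counted, none was past a ratio of 2, where 2.81% of all genes were higher and 3.39% lower. Fos gave 63 and 70 UMIs (log2 ratio 0.57, interval 0.063 to 1.09) and Nr4a1 1903 and 1560 UMIs (log2 ratio 0.14, interval 0.038 to 0.23). Egr1 stood at -0.070 (-0.23 to 0.087), Npas4 at 0.0024 (-0.23 to 0.23) and Ier2 at -0.30 (-0.84 to 0.23), intervals that include 0.

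The summed level was higher in shallower cells. In control excitatory neuron-like cells it was 217 CPM at 1000 to 2000 UMIs, 115 CPM at 2000 to 5000, 89.7 CPM at 5000 to 10000 and 75.2 CPM above. In WMI cells it was 132, 102 and 89.2 CPM in the 3 deeper ranges, each above the control level of that range. Control cluster 3 stood at 207 CPM (190.2 to 226) and had the highest control level of 8 of the 10 genes, all but Fos and Jun. Slc17a7 was at 654 CPM in it, against 254 CPM in the class. The 748 control barcodes that failed a filter had a summed level of 224 CPM. What part depth has in these levels was not tested.

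**Figure D3:**
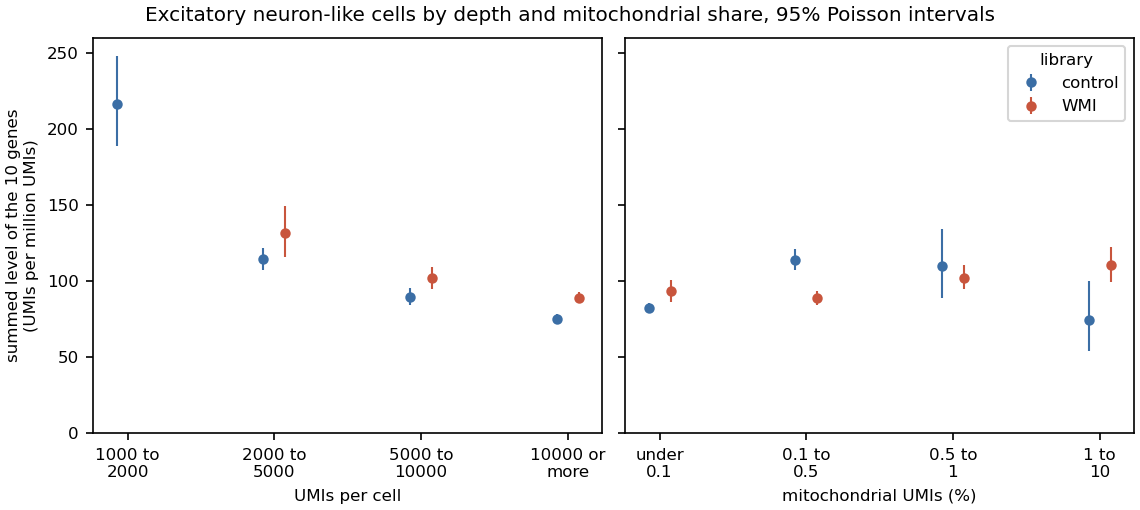
Summed level of the 10 genes (CPM) in excitatory neuron-like cells by UMIs per cell and by mitochondrial share, for the control and WMI libraries, with exact 95% Poisson intervals. In the control library the level goes from 217 CPM in the shallowest to 75.2 CPM in the deepest cells, and by mitochondrial share from 82.3 CPM below 0.1% to 74.5 CPM above 1%, with 114 and 110.1 CPM between.

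In inhibitory neurons a difference was not detectable at this depth. The sum rested on 220 and 164 UMIs and had a log2 ratio of -0.027 (-0.33 to 0.27). Egr1 and Nr4a1 were the 2 genes counted, with 9.17 and 9.33 CPM and 19.6 and 19.2 CPM, and neither was past a ratio of 2, where 2.12% of all genes were higher and 1.11% lower. Of 9 late activity genes 1, Vgf, was past it, at 29.2 and 60.1 CPM (log2 ratio 1.04, interval 0.73 to 1.36).

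In astrocyte-like cells Junb and Fos stood apart. Junb gave 5 UMIs in 483 control and 68 in 582 WMI cells, or 2.03 and 22.0 CPM, a log2 ratio of 3.44 (2.14 to 5.11). It was the 1 gene past a ratio of 2 of 4 counted, where 6.05% of all genes were higher and 1.48% lower. Fos gave 5 and 32 UMIs, or 2.03 and 10.3 CPM (log2 ratio 2.35, interval 0.98 to 4.07), too few to be counted. Jun, with 33 and 55 UMIs, and Egr1, with 37 and 42 UMIs, had log2 ratios of 0.41 (-0.24 to 1.08) and -0.14 (-0.82 to 0.53). Nr4a1 gave 37 and 37 UMIs and Dusp1 20 and 18 UMIs. After thinning, Junb was found in 2 of 483 control cells, 0.414% (0.0502 to 1.49), and in 15 of 582 WMI cells, 2.58% (1.45 to 4.22), and without thinning in 1.04% and 9.11%. In male cells Junb gave 5 and 11 UMIs, a log2 ratio of 2.53 (0.89 to 4.41). The summed level had a log2 ratio of 0.56 (0.26 to 0.85).

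Among related genes in astrocyte-like cells, Klf6, a zinc finger factor, gave 21 and 67 UMIs (log2 ratio 1.35, interval 0.62 to 2.13) and was the 1 of 3 other transcription factors past a ratio of 2. Btg2, an anti-proliferative gene, gave 13 and 42 UMIs (log2 ratio 1.36, interval 0.44 to 2.39), the 1 of 7 other regulators. Bag3, a co-chaperone, gave 28 and 106 UMIs (log2 ratio 1.59, interval 0.98 to 2.25), the 1 of 7 heat shock genes, while that list summed to 217 and 213 CPM. The ex vivo myeloid activation list summed to 16.2 and 45.2 CPM, with the 1 gene counted, Nfkbiz, past a ratio of 2 at 28 and 92 UMIs (log2 ratio 1.39, interval 0.76 to 2.05). Microglial markers summed to 155 and 466 CPM in astrocyte-like cells, with 7 of 8 higher in WMI and none at 0, against 3773 and 4267 CPM in microglia-like cells. WMI microglia-like cells themselves had 17.3 CPM of Junb, within the interval of WMI astrocyte-like cells (17.05 to 27.8), and 0.508 CPM of Fos, from 2 UMIs. WMI cells of the unnamed cluster 4 had 17.1 CPM of Junb and 6.15 CPM of Fos. What part RNA of other cells has in the astrocyte-like levels was not tested.

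In microglia-like cells Jun was past a ratio of 2. It gave 9 UMIs in 437 control and 51 in 1112 WMI cells, a log2 ratio of 1.04 (0.0085 to 2.25), the 1 of 4 genes counted that was, where 8.21% of all genes were higher and 2.06% lower. The log2 ratio was below 1 as a mean of single-cell levels (0.95), in male cells (0.78), in cells under 1% mitochondrial UMIs (0.77) and with predicted doublets kept (0.70). Junb, with 13 and 68 UMIs (log2 ratio 0.93, interval 0.060 to 1.91), was counted and below a ratio of 2. Dusp1, with 1 and 32 UMIs (log2 ratio 3.54, interval 0.96 to 8.89), and Ier2, with 2 and 17 UMIs (log2 ratio 1.63, interval -0.44 to 4.79), were too few to be counted, as was Fos with 3 and 2 UMIs. Nr4a1 and Egr1 stood at 0.041 (-0.66 to 0.79) and 0.11 (-0.59 to 0.86), and the summed level at 0.49 (0.14 to 0.84), which in male cells was 0.18 (-0.32 to 0.68).

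The 9 genes of ex vivo myeloid activation summed to 50.2 and 209 CPM in microglia-like cells, and 4 of 6 were past a ratio of 2. The chemokine genes Ccl3 and Ccl4 gave 2 and 50 UMIs and 2 and 93 UMIs, Cd83, a surface protein, 15 and 318 UMIs and Nfkbiz 11 and 164 UMIs. Il1b, which encodes interleukin-1 beta, gave 0 and 49 UMIs. Atf3, a stress-induced factor, gave 1 and 58 UMIs, or 0.697 and 14.7 CPM. The UMIs of single genes in this paragraph come from 1434115 control and 3939188 WMI UMIs of all genes. Taken raw, they overstate the ratios between the libraries. The heat shock list summed to 260.1 and 231 CPM, with Bag3 past a ratio of 2 at 6 and 44 UMIs. The share of these levels that arose during dissociation was not tested, and handling and injury cannot be told apart with 1 library per group.

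**Figure D4:**
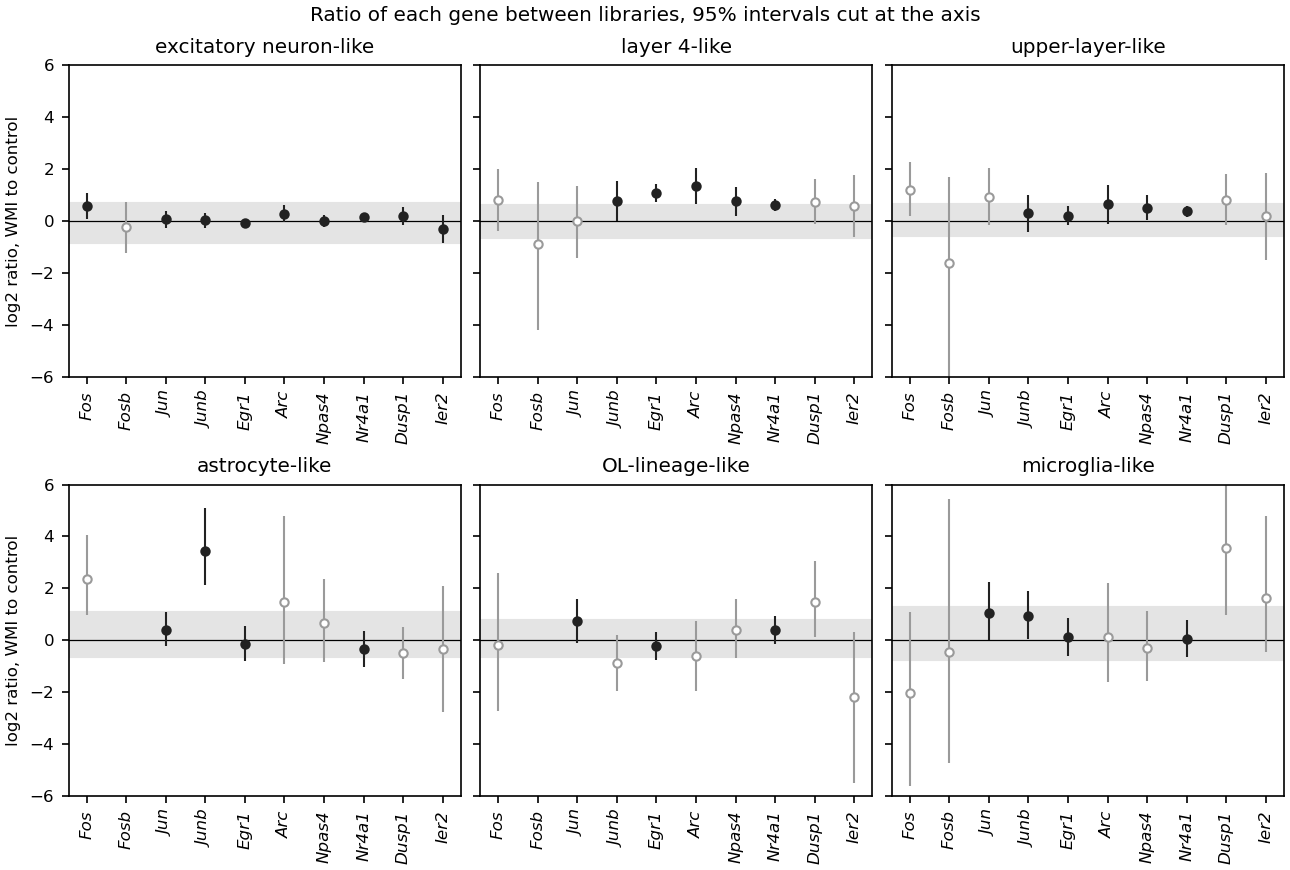
Log2 ratio of each gene between the WMI and control libraries in neuronal, glial and myeloid sets, with 95% counting intervals. Filled points have at least 50 UMIs over both libraries and open points fewer, and the grey band spans all genes of that set from the lower to the upper 5%. In astrocyte-like cells Junb stands at 3.44 and Fos at 2.35, and in layer 4-like neurons Arc at 1.34 and Egr1 at 1.06.

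OL-lineage-like cells, precursors and their descendants, had a log2 ratio of the sum of 0.12 (-0.16 to 0.40). None of 3 genes was past a ratio of 2, where 2.60% of all genes were higher and 2.05% lower. Dusp1 gave 6 and 25 UMIs (log2 ratio 1.46, interval 0.14 to 3.03), too few to be counted. Jun was counted, with 18 and 45 UMIs (log2 ratio 0.72, interval -0.096 to 1.6). Within the lineage, Nr4a1 gave 6 and 44 UMIs in 150 and 428 pre-OL-like cells, or 6.76 and 19.4 CPM (log2 ratio 1.52, interval 0.29 to 3.04). It was the 1 member counted in these cells and was past a ratio of 2, where 3.17% of all genes were higher and 1.62% lower. Nr4a1 gave 33 and 41 UMIs in OPC-like cells, or 18.9 and 17.2 CPM (log2 ratio -0.14, interval -0.84 to 0.57). In mature OL-like cells it gave 4 and 0 UMIs. The part of free RNA in these UMIs was not tested, and the Nr4a1 ratio to excitatory neurons in the lineage lay between those of Rbfox3 and Slc17a7. OPC-like cells had summed levels of 54.5 and 57.5 CPM and mature OL-like cells of 41.0 and 26.8 CPM, the latter from 31 and 13 UMIs.

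Over the 5 classes, 22 of 50 pairs of gene and class could be counted. Of these 2 were past a ratio of 2 upwards, Junb in astrocyte-like and Jun in microglia-like cells, and 0 downwards. Among all genes counted, 2.12% to 8.21% were higher and 1.11% to 3.39% lower, depending on the class. The higher share was 2.81% in excitatory neuron-like, 6.05% in astrocyte-like and 8.21% in microglia-like cells. The 16 factors and kinases upstream of the genes were all counted in excitatory neuron-like cells, with none past a ratio of 2, and in astrocyte-like cells 1 of 13, Elk3, was higher. In excitatory neuron-like cells the heat shock list summed to 198 and 158 CPM, with Dnajb1 lower at 146 and 45 UMIs. Single types did not all follow this pooled difference. The list stood at 310 and 314 CPM in cluster 0, which came mostly from the control library. It stood at 142 and 155 CPM in upper-layer-like and at 175 and 139 CPM in layer 5-like neurons. The part of cluster composition in the pooled difference was not tested. Over all excitatory neuron-like cells the ex vivo myeloid activation list summed to 12.7 and 20.9 CPM. Of its genes 2 of 4 were past a ratio of 2 upwards, Ccl4 at 5 and 49 UMIs and Cd83 at 101 and 193 UMIs. In inhibitory neuron-like cells that list summed to 20.2 and 25.8 CPM and in OL-lineage-like cells to 15.6 and 26.9 CPM, with none of 1 and 2 past it. The late activity genes summed to 423 and 454 CPM in excitatory neuron-like cells, with none of 11 past a ratio of 2.

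**Figure D5:**
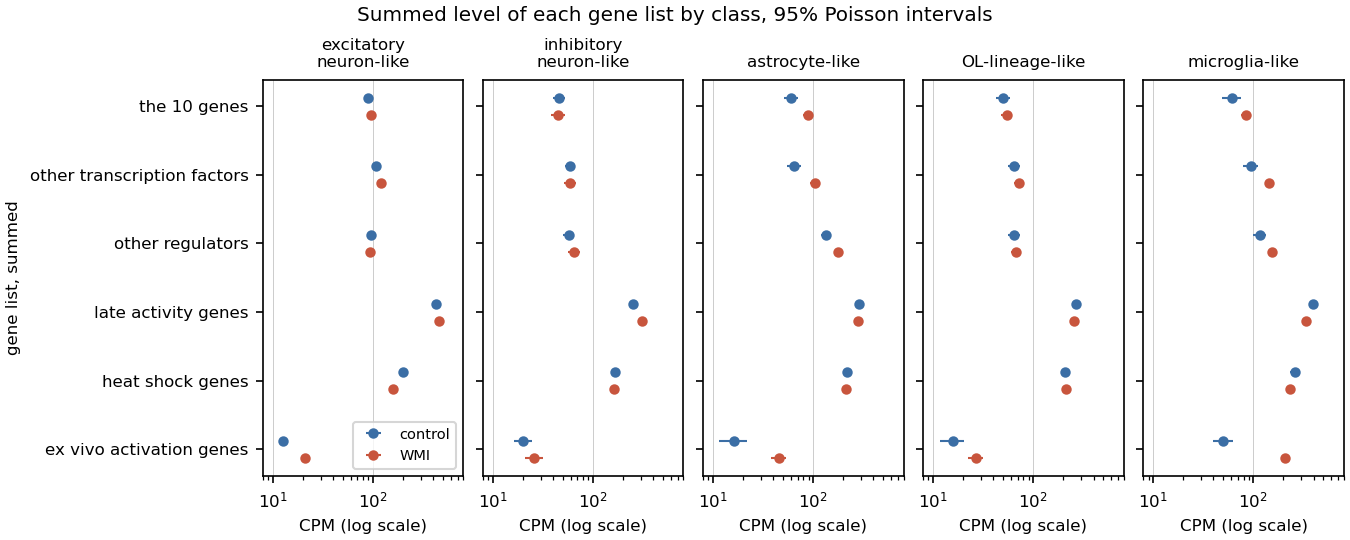
Summed level (CPM, log axis) of the 10 genes and of the lists of related genes in the 5 classes, for the control and WMI libraries, with exact 95% Poisson intervals. Myeloid activation genes stand at 50.2 and 209 CPM in microglia-like cells, and heat shock genes at 260.1 and 231 CPM.

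Within single cells the genes were rarely seen together after thinning, which itself lowers the number of members found per cell. After thinning to 1000 UMIs, any member was found in 10.6% (9.90 to 11.4) of control and 9.80% (8.76 to 10.9) of WMI excitatory neuron-like cells, and without thinning in 40.2% and 55.6%, at medians of 3768 and 9372 UMIs. Without the clusters mostly of 1 library the direction turned: no member was found in 91.4% of control and 90.2% of WMI cells after thinning to 1000 UMIs, and in 86.3% and 82.0% after thinning to 2000, against 89.4% and 90.2% with them at 1000. With all clusters and thinning to 2000 UMIs, exactly 2 members were found in 1.26% of control and 1.82% of WMI cells. After thinning to 1000 UMIs, exactly 2 members were found in 35 control and 16 WMI cells, 0.531% and 0.537%, and 3 in 3 of each. Egr1 was found in 12 of 303 control cells with Nr4a1, 3.96% (2.06 to 6.82), against 2.26% of cells without it. In WMI cells it was found in 3 of 137, 2.19% (0.454 to 6.27), against 2.36%. A difference was not detectable at this depth.

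The unnamed cluster 4 had a summed level of 130.1 CPM (116 to 146) in its 1115 WMI cells, and 19 member UMIs in its 63 control cells. Dusp1 stood at 13.2 CPM in the WMI cells, from 30 UMIs, the highest WMI level of this gene among types with at least 50 cells. These cells had a median of 1905 UMIs and held 1542 CPM of erythroid, 1503 CPM of microglial, 1238 CPM of astrocyte and 917 CPM of excitatory neuron markers. Their pan-neuronal markers stood at 19130 CPM. WMI excitatory neuron-like cells held 25890 CPM of pan-neuronal and 1115 CPM of excitatory neuron markers. WMI microglia-like cells held 4267 CPM of microglial markers.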

How the data were processed

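The deposited values are raw UMI counts per gene and barcode, which the authors obtained from Cell Ranger 6.1.1. The labels name mm9, but all 55450 gene identifiers are in GENCODE M21 (GRCm38), whose gene positions were used. Libraries held 10288 control and 8354 WMI barcodes and 66470806 and 60568639 UMIs. Barcodes under 1000 UMIs or 500 genes or over 10% mitochondrial UMIs (748 and 241) and predicted doublets (785 and 542) were removed. Doublets were scored against 2 simulated per cell with 30 neighbours in 30 principal components, at 0.8% per 1000 barcodes, and 82.2% and 80.2% of artificial doublets were removed. Cells were integrated and clustered in Seurat 5.3.0 (R 4.3.3; 2000 features, 30 dimensions, resolution 0.8), with the genes reported here left out of the features, and named from marker lists as "-like". Python 3.11.15 was used otherwise.

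UMIs were summed per class and library and divided by all UMIs (CPM). Poisson intervals, conditional binomial intervals of ratios and Clopper-Pearson intervals of shares are exact. A ratio was counted from a total of 50 UMIs upwards, the 2 libraries added, with a ratio of 2 as the threshold. The scripts were tested on simulated data. The 10 members are always named, with up to 4 genes of each other list by UMIs, and other genes named were chosen after their values were seen. The members and lists were chosen with earlier results of these data known. Alternatives were other cell filters, clusterings, weightings, denominators, count minimums, thresholds and thinning depths.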

Additional observations from a re-analysis of the deposited data

Results flagged for a closer look

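Predicted doublets, which enter no comparison, also held UMIs of the 10 genes. Their summed level was 82.4 CPM in the WMI library, from 502 UMIs in 542 barcodes, above the 67.4 CPM of the 785 predicted doublets of the control library.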

How the results depend on the processing

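No paired analysis was possible because each group has 1 library, and for the same reason no replicate could be left out. Of 60 summed log2 ratios under other settings, 53 moved by less than the counting error, 6 moved by more and 1 reversed. A change of sign was called reversed only where the interval under the main setting excluded 0. The excitatory ratio was 0.19 from cells with at least 2000 UMIs clustered anew, 0.16 at resolution 1.6, 0.26 with equal weight per cluster, 0.25 without clusters mostly of 1 library, 0.18 in cells with 5000 to 10000 UMIs and -0.12 as a mean of single-cell levels, and the cause was not tested. The microglial ratio was 1.15 in cells with 5000 to 10000 UMIs, from 4 member UMIs in 25 control cells. That range of cells, the sum without Nr4a1 and the layer 4-like and upper-layer-like values under other settings were chosen after seeing the data. Over the 12 settings the ratio ranged from 0.32 to 0.76 in astrocyte-like, 0.18 to 1.15 in microglia-like, 0.67 to 0.90 in layer 4-like and 0.30 to 0.53 in upper-layer-like cells. It changed sign in OL-lineage-like cells, from -0.14 to 0.20, above 0 in 9 of 12 settings. In inhibitory neuron-like cells it went from -0.17 to 0.12, above 0 in 3 of 12. The 2 pairs past a ratio of 2 became 1 as a mean of single-cell levels, 1 under 1% mitochondrial UMIs, 0 in male cells and 0 at a minimum of 200 UMIs, where fewer pairs could be counted, and 4 at a ratio of 1.5. The difference in the share of excitatory neuron-like cells with a member UMI was -0.834 percentage points thinned to 1000 UMIs, 1.3 thinned to 2000 and 15.3 without thinning, where the libraries differ in depth.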
